A study of Cricetulus griseus with 9 samples.

Results

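The transcripts described here are those of the mitochondrial genome that the expression table lists under the standard symbols of its protein-coding genes. They are identified by those symbols alone. The symbols searched for, ignoring case and with or without the prefix mt, name 13 genes, of which the table held 4: ND4, CYTB, COX1 and COX3. They are 4 of the 6753 genes in the table. All 4 passed the filter on low values, which removed 0 genes, as the table as deposited already had a higher floor of its own. The other 9 genes were not analysed here.

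The cells were MI5-4, a Chinese hamster ovary (CHO) subline grown in medium with glucose and serum. All 9 libraries came from this line, and mRNA was sequenced from 3 libraries in each of 3 groups. The group labelled WTHK2 is said to express wild-type hexokinase 2, the enzyme that phosphorylates glucose at the start of glycolysis. The group labelled LAC had the cells of the EV group, kept for 24 h with sodium lactate at 10 mM. The group labelled EV is described as hexokinase null and received no lactate. No clone, vector or passage of these cells is named. The labels do not say whether the 3 libraries of a group came from separate cultures, so the p-values cover the spread among these libraries alone, which may be technical.

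Mitochondria keep a small circular genome of their own, which is transcribed inside the organelle by a dedicated polymerase into long transcripts that cover most of a strand and are then cut at the transfer RNAs into single messages. These messages are translated by mitochondrial ribosomes into core subunits of the respiratory chain, which are joined there by many subunits encoded in the nucleus and imported. ND4 encodes a membrane subunit of complex I, which takes electrons from NADH. CYTB encodes cytochrome b, the catalytic core of complex III. COX1 encodes the subunit of complex IV that carries the oxygen-reducing centre, and COX3 encodes another core subunit of the same complex.

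The values are normalized CPM, read counts that the authors scaled to an effective library size. That size could be read from the step between the values of a library and lay between 18050959 and 26238659 reads. Hk2, the gene that the group WTHK2 is named for, averaged 65.3 ± 1.33 CPM in the libraries labelled WTHK2, 67.8 ± 2.92 CPM in LAC and 67.3 ± 2.11 CPM in EV (SD, n = 3 each). It did not differ between WTHK2 and EV by the fit described below (log2 fold change -0.044, adjusted p = 0.522). This goes against the label if reads of the HK2 construct were counted under Hk2, and whether they were is not known from what was used here. WTHK2 below means the libraries labelled so. Hk1, the other hexokinase listed, averaged 285 ± 7.63 CPM in WTHK2, 302 ± 2.22 CPM in LAC and 324 ± 7.09 CPM in EV (SD, n = 3 each). It fell by 0.18 on the log2 scale in WTHK2 and by 0.097 in LAC, where the call was lost with libraries scaled to the same median (-0.055, adjusted p = 0.212), without the variance trend (adjusted p = 0.0775), and without EV replicate 1, EV replicate 2 or LAC replicate 3 (adjusted p at most 0.125). Reads of both hexokinase genes were thus present in EV, the group described as hexokinase null. These RNA values do not show hexokinase protein or activity. Of cell type markers, 0 of 8 epithelial and 0 of 7 leukocyte genes were listed, whereas 6 of 11 fibroblast genes were, Vim and Fn1 among them. Genes below the floor of the table are not listed, so a missing marker does not show that its RNA was absent. Of these 6, 3 rose and 1 fell in WTHK2, and 1 rose and 1 fell in LAC. Over all genes 21% rose and 25.4% fell in WTHK2, and 22.4% rose and 27.1% fell in LAC.

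All 4 mitochondrial transcripts were higher in the libraries labelled WTHK2 and in LAC than in EV, by 1.39 to 1.61-fold. Every one of the 6 libraries of WTHK2 and LAC lay above the 3 EV libraries for each of the 4. The libraries labelled WTHK2 and the LAC libraries overlapped. In both groups, replicate 1 stood above replicates 2 and 3. In bulk libraries scaled to their total, more RNA of these genes per cell, more cells rich in it, and less of the other RNA cannot be told apart.

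ND4, the complex I member, gave 37.6, 30.6 and 29.8 CPM in replicates 1 to 3 labelled WTHK2, 42.9, 33.8 and 32.3 CPM in LAC, and 23.5, 22.2 and 20.3 CPM in EV. The lowest WTHK2 and LAC libraries were above the highest EV library. The means were 32.7 ± 4.30 CPM in WTHK2, 36.3 ± 5.75 CPM in LAC and 22.0 ± 1.60 CPM in EV (SD, n = 3 each). In a limma fit across all genes, ND4 was 0.54 higher on the log2 scale in WTHK2 than in EV (SE 0.101, adjusted p = 0.000218). The difference of LAC from EV was 0.69 (SE 0.101, adjusted p = 1.99e-05). ND4 had between 452 and 896 reads a library, so counting error alone was between 3.34% and 4.70% of its value.

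CYTB, the complex III member, gave 2462, 1952 and 1959 CPM in WTHK2, 2596, 2116 and 2021 CPM in LAC, and 1455, 1387 and 1470.1 CPM in EV. Again no library of either group reached down into the EV range. Means were 2124 ± 293 CPM in WTHK2, 2244 ± 308 CPM in LAC and 1437 ± 44.4 CPM in EV (SD, n = 3 each). The log2 fold change of CYTB was 0.56 for WTHK2 against EV (SE 0.0754, adjusted p = 8.54e-06) and 0.63 for LAC against EV (SE 0.0754, adjusted p = 2.61e-06). Its counting error was at most 0.55%, far below the spread between libraries.

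COX1, the first of the 2 complex IV members, was the gene with the most reads in all 9 libraries, between 245626 and 377860. Its values were 17192, 13896 and 13857 CPM in WTHK2, 18085, 14466 and 14291 CPM in LAC, and 10659, 10430.0 and 11117 CPM in EV. The gap between the lowest WTHK2 library and the highest EV library exceeded the whole EV range. COX1 averaged 14982 ± 1915 CPM in WTHK2, 15614 ± 2142 CPM in LAC and 10736 ± 349.8 CPM in EV (SD, n = 3 each). Its log2 fold change was 0.47 for WTHK2 against EV (SE 0.0742, adjusted p = 4.08e-05) and 0.53 for LAC against EV (SE 0.0742, adjusted p = 1.20e-05).

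COX3, the other complex IV member, was detected at 39.8, 33.1 and 30.0 CPM in WTHK2, 41.1, 33.7 and 32.0 CPM in LAC, and 24.7, 23.3 and 23.9 CPM in EV. The groups were again apart from EV. COX3 averaged 34.3 ± 5.04 CPM in WTHK2, 35.6 ± 4.82 CPM in LAC and 24.0 ± 0.723 CPM in EV (SD, n = 3 each). The log2 fold change was 0.49 for WTHK2 against EV (SE 0.0965, adjusted p = 0.000385) and 0.54 for LAC against EV (SE 0.0965, adjusted p = 0.000135). With 531 to 869 reads a library, its counting error was 3.39% to 4.34%.

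**Figure D1:**
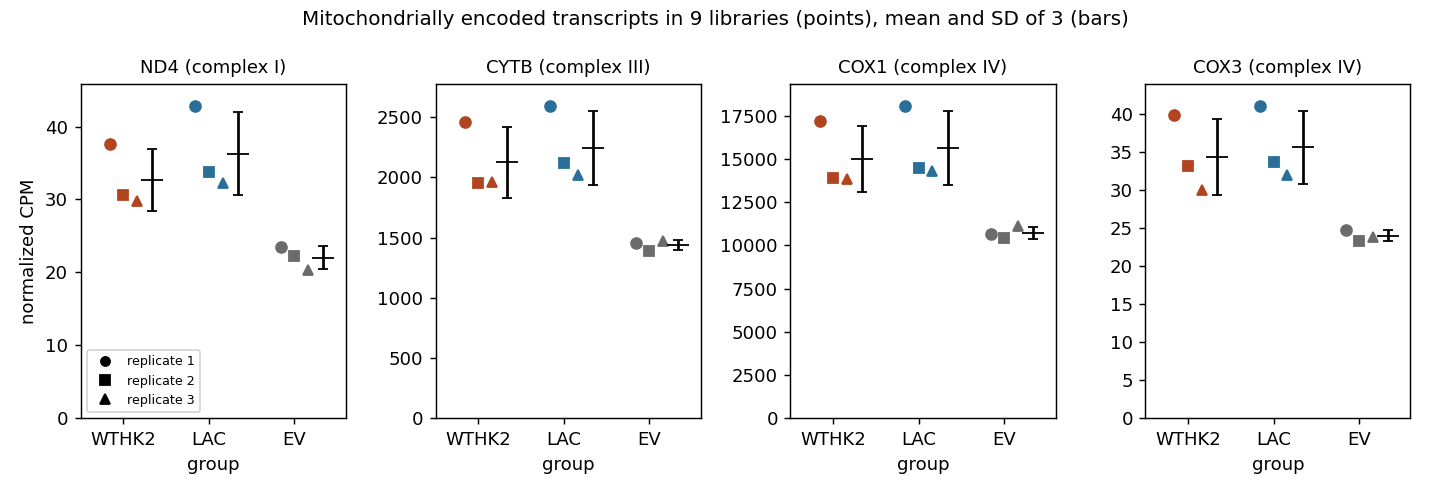
Normalized CPM of ND4, CYTB, COX1 and COX3 in each library, with the group mean and SD, for WTHK2, LAC and EV (3 libraries each, each axis starting at 0). For every transcript the 6 WTHK2 and LAC libraries sit above the 3 EV libraries, and replicate 1 of WTHK2 and of LAC is the highest of its group.

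So 4 of 4 were called higher in WTHK2 than in EV at an adjusted p under 0.05, where 21% of all genes were, and 4 of 4 in LAC, where 22.4% of all genes were. Non-overlapping groups with the higher values in WTHK2 were found for 26.6% of all genes, and with the higher values in LAC for 27%. Ranked by level in EV replicates 1 to 3, ND4 stood at 6495, 6593 and 6717 of the 6753 genes, near the floor of the table. COX3 stood at 6394, 6514 and 6475. These 2 genes may be listed only through their higher values in WTHK2 and LAC, which was not tested. The comparisons share the EV libraries, so their results are not independent. The 4 transcripts come from the same small genome and correlated across the libraries. They are thus not 4 independent results within a comparison either. The median log2 fold change of the 4 was 0.52 for WTHK2 against EV and 0.59 for LAC against EV, beside medians of -0.0082 and -0.0035 over all genes. Ranked from the highest fold change of the 6753 genes, CYTB stood at 29, ND4 at 32, COX3 at 53 and COX1 at 64 for WTHK2 against EV. For LAC against EV, ND4 stood at 2, CYTB at 7, COX3 at 12 and COX1 at 16. Among the called genes of all kinds, 45.3% were higher in WTHK2 and 45.3% in LAC. With each library scaled to the same median these shares were 57.3% and 58.6%, while the median of all genes moved by less than 0.1 on the log2 scale.

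**Figure D2:**
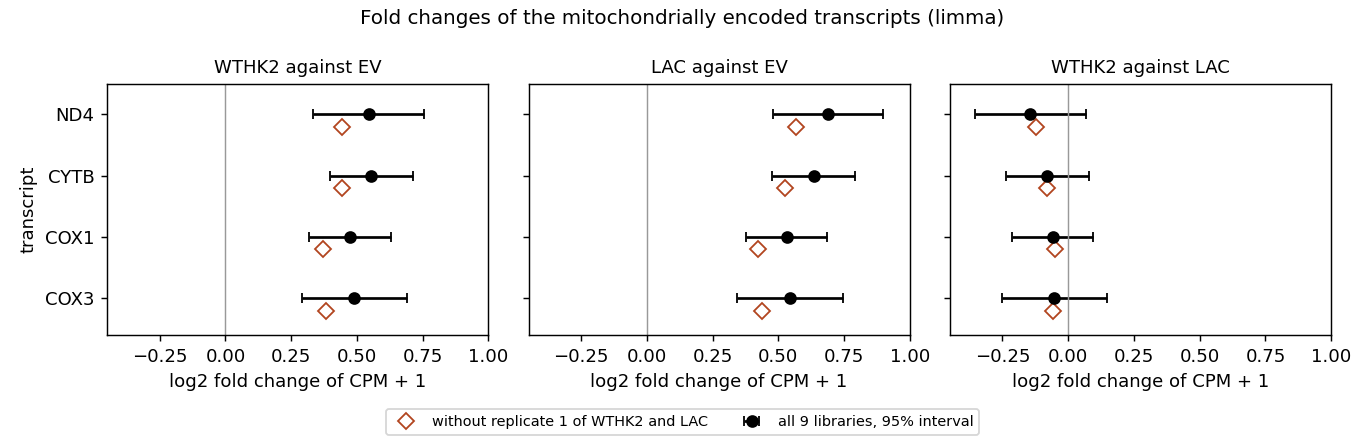
Log2 fold changes of the 4 transcripts with 95% confidence intervals from the limma fit (diamonds: without replicate 1 of WTHK2 and LAC), for WTHK2 against EV, LAC against EV and WTHK2 against LAC. The intervals of the first 2 comparisons lie above 0, from 0.29 to 0.90, and those of WTHK2 against LAC include 0.

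Between WTHK2 and LAC, none of the 4 was called. ND4 differed by a log2 fold change of -0.14 (95% confidence interval -0.35 to 0.066, adjusted p = 0.367). CYTB differed by -0.079 (-0.24 to 0.078, adjusted p = 0.532), COX1 by -0.059 (-0.21 to 0.096, adjusted p = 0.653) and COX3 by -0.053 (-0.25 to 0.15, adjusted p = 0.768). The limma fit gave 0 calls among the 4, also 0 at an unadjusted p under 0.05, and voom on reads recovered from the values gave 0. Over all genes the limma fit called 16.1%, and 29.3% had an unadjusted p under 0.05. The intervals do not show that WTHK2 and LAC were alike: they reach down to -0.35 for ND4. Without WTHK2 replicate 1, CYTB was called lower in WTHK2 than in LAC, by -0.19 (adjusted p = 0.0289; the other alternatives reached up to 0.904). Without LAC replicate 1 the sign turned for COX1, COX3 and CYTB, to 0.052, 0.052 and 0.030. COX3 also turned, to 0.037, without WTHK2 replicate 3. The difference of ND4 kept its sign, at -0.25 without WTHK2 replicate 1 and -0.021 without LAC replicate 1, and was not called. Leaving out replicate 1 of a single group keeps the high replicate 1 of the other. Without replicate 1 of both groups, the differences were -0.12 for ND4, -0.081 for CYTB, -0.051 for COX1 and -0.057 for COX3. None of these was called.

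Summed, the 4 transcripts took 19732, 15912 and 15876 CPM in WTHK2, 20765, 16649 and 16376 CPM in LAC, and 12162, 11862 and 12631 CPM in EV. As a share of the full CPM scale this was 1.97%, 1.59% and 1.59% in WTHK2, 2.08%, 1.66% and 1.64% in LAC, and 1.22%, 1.19% and 1.26% in EV. The lowest WTHK2 library was 1.26-fold above the highest EV library, and the lowest LAC library 1.30-fold above it. COX1 made up 86.9% to 88.0% of the sum and CYTB 11.6% to 12.7%. COX3 and ND4 together gave 0.350% to 0.405%. Over the 9 libraries COX1 was 420 to 466 times COX3 and 422 to 548 times ND4. Whether the reads listed under COX3 and ND4 came from the messages of those genes was not tested. Nuclear copies of mitochondrial DNA, and genes overlapping on the circular genome, can share reads with these 4, and how the counting treated such reads is not stated in what was used here. Per-length levels could not be compared, as the table holds no gene lengths. The other listed genes summed to 789011 to 792960 CPM in WTHK2, 788444 to 793219 CPM in LAC and 790532 to 793321 CPM in EV.

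Over the 9 libraries the 4 transcripts varied together. Pearson correlations between their log2 values were 0.970 to 0.997 over the 9 libraries, which share the group differences and the scaling, and 0.874 to 0.991 for deviations from the group means. Both include replicate 1 of WTHK2 and of LAC, which was high for all 4. Within EV the order of libraries differed: replicates 1 to 3 gave 23.5, 22.2 and 20.3 CPM for ND4 and 10659, 10430 and 11117 CPM for COX1. Within WTHK2 and within LAC, the ratios between them varied less than the values themselves. In EV this did not hold for every pair, as COX1 over ND4 was 454, 469 and 548. COX1 over CYTB was 6.98, 7.12 and 7.07 in WTHK2, 6.97, 6.84 and 7.07 in LAC, and 7.33, 7.52 and 7.56 in EV. That ratio differed from the EV mean by -5.51% in WTHK2 and by -6.85% in LAC, with no overlap with EV, and no test was made of it. ND4 over COX3 was 0.944, 0.925 and 0.994 in WTHK2, 1.04, 1.00 and 1.01 in LAC, and 0.949, 0.954 and 0.851 in EV. Here the LAC libraries stood above those of EV and of WTHK2, while WTHK2 overlapped EV. COX1 over ND4 was 422 to 443 in LAC, below WTHK2 (453 to 465) and EV (454 to 548). CYTB over COX3 was 62.9 to 63.2 in LAC, above EV (58.8 to 61.6). In both of these ratios WTHK2 overlapped EV. COX1 over COX3 and CYTB over ND4 overlapped EV in both groups. How often other gene pairs separate as far was not counted. The ratios that hold COX3 or ND4 carry the larger counting error of those 2 genes, 3.39% to 4.34% for COX3 and 3.34% to 4.70% for ND4. Beside that error the gap in ND4 over COX3 between LAC (lowest 1.00) and WTHK2 (highest 0.994) was small.

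**Figure D3:**
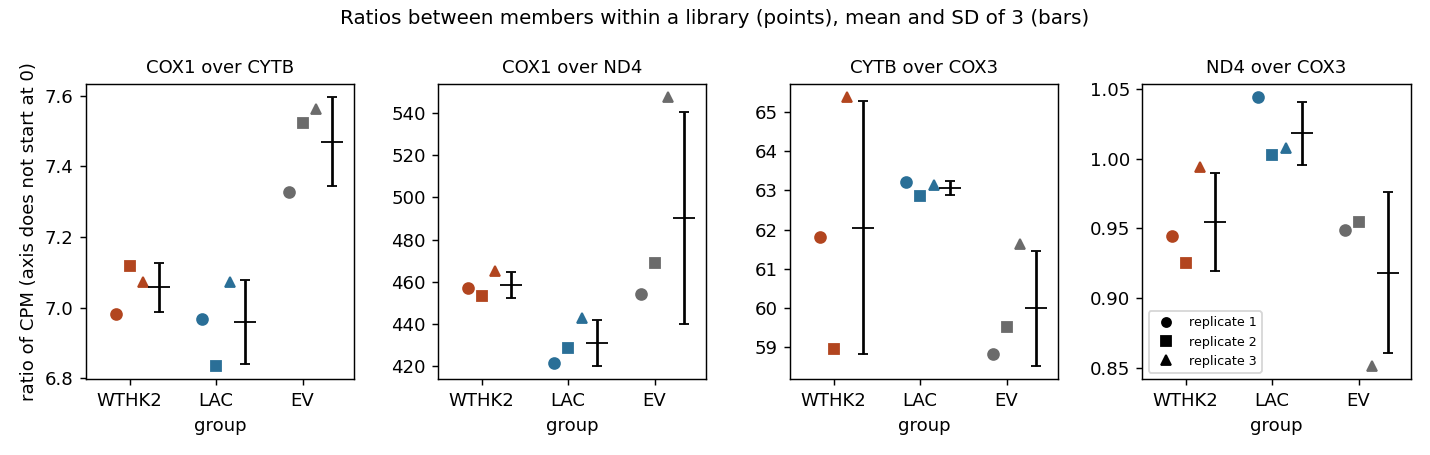
Ratios of CPM between 4 pairs of the transcripts in each library (points), with the group mean and SD (bars; WTHK2, LAC, EV; 3 libraries each), on axes that do not start at 0. COX1 over CYTB lies between 6.84 and 7.12 in WTHK2 and LAC and between 7.33 and 7.56 in EV.

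The spread within WTHK2 and LAC was wide, with replicate 1 apart. The coefficient of variation of the 4 was 12.8% to 14.7% in WTHK2, 13.6% to 15.8% in LAC and 3.02% to 7.27% in EV, beside medians of 4.43%, 4.71% and 3.60% over all genes. These exceeded 97.1% to 98.7% of genes in WTHK2, 97.2% to 98.6% in LAC and 40.0% to 88.9% in EV. Relative to the EV mean, replicate 1 of WTHK2 stood 0.68 to 0.78 higher on the log2 scale, and replicate 1 of LAC 0.75 to 0.93 higher. Replicates 2 and 3 stood 0.31 to 0.46 higher in WTHK2 and 0.40 to 0.60 higher in LAC. Replicate 1 was the highest of its group for all 4 in both groups; over all genes it was so in both groups for 19.4%. Its effective library size was the smallest of the WTHK2 libraries, at 18050959 reads, and the largest of the LAC libraries, at 20893222 reads; whether anything about those libraries bears on the values was not tested. With replicate 1 of WTHK2 and of LAC left out, an alternative added after the data were seen, all 4 were called higher in both comparisons, where 19.3% and 19.9% of all genes were. That leaves replicates 2 and 3 in these groups and removes much of their spread. The adjusted p of the limma fit fell for all 4, for COX1 in WTHK2 from 4.08e-05 to 4.89e-11, though the fold changes shrank. These calls were thus made easier by the choice of libraries. The fold changes then were 0.44, 0.44, 0.37 and 0.38 for ND4, CYTB, COX1 and COX3 in WTHK2, and 0.57, 0.53, 0.42 and 0.44 in LAC.

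**Figure D4:**
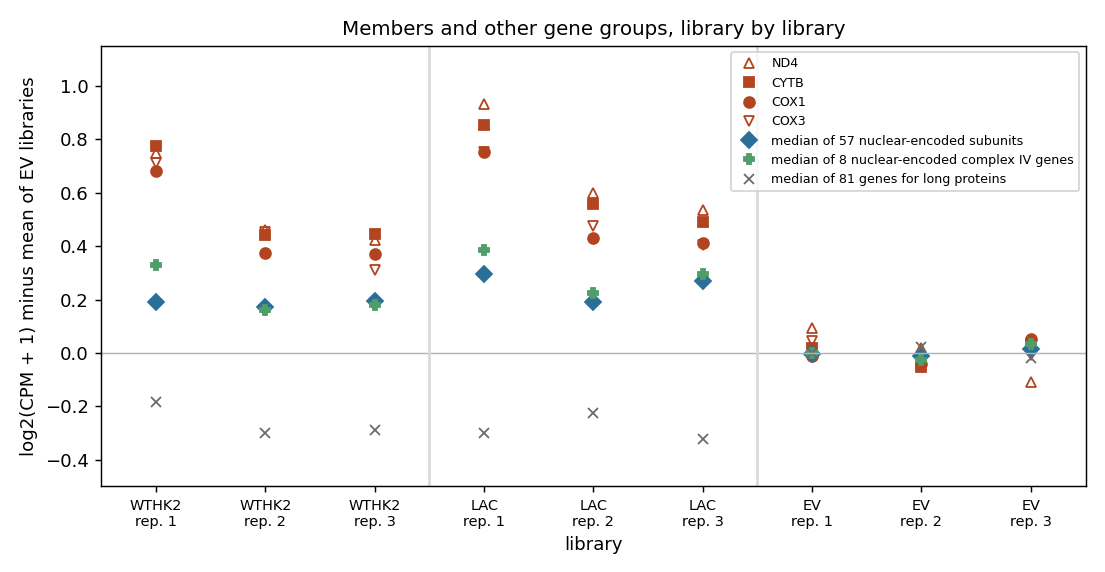
Log2 difference of each library from the EV mean for the 4 transcripts and for the medians of 57 nuclear-encoded subunits, 8 complex IV genes and 81 genes of long proteins. Replicate 1 stands highest in WTHK2 and LAC for the 4 transcripts, and their values in replicates 2 and 3 still lie above EV.

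Nuclear-encoded subunits of the same complexes and of ATP synthase, to which none of the 4 belongs, were as a group also higher, by less. Of 57 listed nuclear subunits of complexes I, III and IV and ATP synthase, 45 rose and 0 fell in WTHK2 against EV. Of all genes, 21% rose and 25.4% fell there. The median log2 fold change of the 57 was 0.20. In LAC 51 rose and 0 fell (1 fell by quantile normalization), where 22.4% of all genes rose and 27.1% fell, and the median was 0.25. For WTHK2 against EV the largest rise of a nuclear subunit was that of Ndufb7, at 0.40, and all 4 mitochondrial transcripts were above it. For LAC against EV it was that of Cox6a1, at 0.43, and again all 4 were above it. Without replicate 1 of both groups, 2 of the 4 were above the highest nuclear subunit, Ndufa3 at 0.42, in WTHK2, and 4 of 4 above Cox6c, at 0.37, in LAC. These gene lists were written with results of these data known, and no test compared them with the mitochondrial genes.

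The counts by complex stand beside 21% of all genes that rose in WTHK2 and 22.4% in LAC. By complex, 25 of 32 nuclear complex I genes rose in WTHK2 and 29 in LAC. Ndufb7 rose by 0.40 in WTHK2 and 0.35 in LAC, and Ndufa3, another accessory subunit, by 0.38 in WTHK2 and 0.32 in LAC. In complex III 6 of 7 rose in WTHK2 and 6 in LAC. Uqcrfs1, the Rieske iron-sulphur subunit that works beside cytochrome b, rose by 0.33 in WTHK2 and 0.18 in LAC. Cyc1, which encodes cytochrome c1, rose by 0.18 in WTHK2 and 0.16 in LAC. In complex IV 7 of 8 rose in WTHK2 and 8 in LAC, among them Cox6c, which averaged 128 ± 2.41 CPM in WTHK2, 130 ± 2.37 CPM in LAC and 101 ± 5.09 CPM in EV (SD, n = 3 each). In ATP synthase 7 of 10 rose in WTHK2 and 8 in LAC, such as Atp5e, by 0.24 in WTHK2 and 0.27 in LAC.

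The nuclear-encoded subunits were set beside the replicate 1 pattern of the mitochondrial transcripts. In complex IV the median of its 8 genes against the EV mean was 0.33, 0.16 and 0.18 in replicates 1 to 3 of WTHK2 and 0.38, 0.23 and 0.30 in those of LAC. Replicate 1 was the highest of its group in 5 of the 8 genes in WTHK2 and in 7 of the 8 in LAC, beside 38.3% of all genes in WTHK2 and 35.0% in LAC. Over the 57 nuclear subunits it was highest in 19 in WTHK2, a share below that of all genes, and in 33 in LAC, a share above it.

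**Figure D5:**
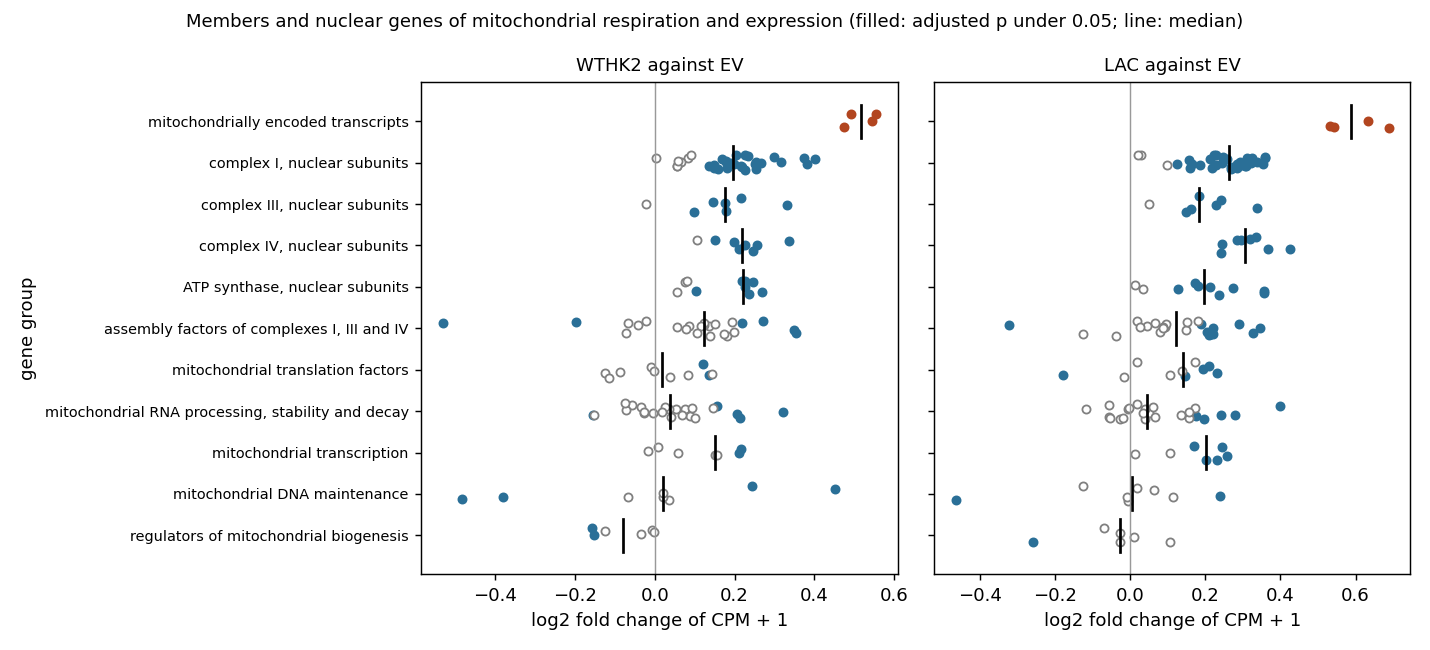
Log2 fold changes of the 4 transcripts and of each gene in the lists of mitochondrial respiration and gene expression (filled points: adjusted p under 0.05; bars: median), for WTHK2 against EV and LAC against EV. In these fits the nuclear subunit lists have no gene called lower, while the lists of mitochondrial DNA maintenance and of assembly factors have genes in both directions.

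Lists of genes that copy, transcribe, process and translate the mitochondrial genome differed from each other. Several were near the shares of all genes called (21% higher and 25.4% lower in WTHK2, 22.4% higher and 27.1% lower in LAC). Of 7 listed transcription genes, 2 rose and 0 fell in WTHK2. In LAC 5 rose and 0 fell, a share risen above that of all genes. The list mixes genes of different roles, so this count gives no direction for mitochondrial transcription itself. In WTHK2 the number risen was 1 without EV replicate 1, EV replicate 2 or WTHK2 replicate 2. In LAC it was 3 without EV replicate 2 or EV replicate 3, and 2 without LAC replicate 3. At an adjusted p under 0.01 it was 0 in WTHK2 and 2 in LAC. Tfb1m, a methyltransferase of mitochondrial ribosomal RNA, rose by 0.22 in WTHK2 and 0.26 in LAC. Mterf3 rose by 0.21 in WTHK2 and 0.24 in LAC, and Tfb2m by 0.17 in LAC. The call in WTHK2 was lost for Tfb1m without EV replicate 2 or WTHK2 replicate 2, and for Mterf3 without EV replicate 1 or WTHK2 replicate 3. That of Tfb2m in LAC was lost without EV replicate 3 or LAC replicate 3. Polrmt, the mitochondrial RNA polymerase, was not called (0.058, adjusted p = 0.415, in WTHK2, and 0.014, adjusted p = 0.851, in LAC). Neither was Tfam, the DNA-packaging transcription factor (-0.016, adjusted p = 0.832, in WTHK2, and 0.11, adjusted p = 0.116, in LAC), which in LAC passed with libraries scaled to the same median (adjusted p = 0.0307) or by quantile normalization (adjusted p = 0.0475; at most 0.421 over its alternatives).

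In DNA maintenance, 2 of 8 genes rose and 2 fell in WTHK2, and 1 rose and 1 fell in LAC. In WTHK2 both counts are near the shares of all genes, 21% higher and 25.4% lower. Mpv17, an inner-membrane protein needed to keep mitochondrial DNA, rose by 0.24 in WTHK2, a call lost without EV replicate 1. Twnk, the helicase that unwinds mitochondrial DNA, fell to 76.1 ± 2.15 CPM in WTHK2, against 107 ± 5.84 CPM in EV (SD, n = 3 each; log2 fold change -0.48, adjusted p = 4.76e-07). In LAC it averaged 98.0 ± 4.12 CPM (-0.12 against EV, adjusted p = 0.0513), which passed in 7 of 22 alternatives (lowest adjusted p = 0.0193), among them the fit of only the 6 libraries of the comparison, voom, and the fits without EV replicate 3, WTHK2 replicate 1 or LAC replicate 2, and WTHK2 was lower than LAC (-0.36, adjusted p = 5.22e-05). Atad3a, an inner-membrane protein linked to nucleoids, averaged 184 ± 3.81 CPM in WTHK2, against 134 ± 5.81 CPM in EV (0.45, adjusted p = 1.26e-07). In LAC Atad3a averaged 136 ± 3.46 CPM (0.018 against EV, adjusted p = 0.750), and WTHK2 was above LAC (0.43, adjusted p = 4.79e-07). Lig3, the ligase that closes mitochondrial DNA nicks, fell by 0.38 on the log2 scale in WTHK2 and by 0.46 in LAC.

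Among 24 genes of mitochondrial RNA processing, stability and decay, 4 rose and 1 fell in WTHK2, and 5 rose and 0 fell in LAC. The shares risen are below those of all genes, 21% in WTHK2 and 22.4% in LAC. With libraries scaled to the same median 8 rose in LAC, and at an adjusted p under 0.01 it was 2 in WTHK2 and 3 in LAC. The number risen in WTHK2 was also 2 without EV replicate 1, and also 2 without WTHK2 replicate 1. Grsf1, an RNA-binding protein of mitochondrial RNA granules, was the one that fell (-0.16), a call lost with libraries scaled to the same median (adjusted p = 0.0788), by quantile normalization (0.0712), without the variance trend (0.0505), and without EV replicate 2, EV replicate 3, WTHK2 replicate 1 or WTHK2 replicate 3 (at most 0.119). Slirp, the partner of Lrpprc in stabilising mitochondrial messages, averaged 59.9 ± 3.49 CPM in WTHK2, 63.3 ± 3.09 CPM in LAC and 47.8 ± 3.03 CPM in EV (SD, n = 3 each). Its log2 fold change was 0.32 in WTHK2 (adjusted p = 0.000396) and 0.40 in LAC (adjusted p = 4.28e-05). Hsd17b10, a subunit of the enzyme that cuts the 5′ ends of mitochondrial transfer RNAs, rose by 0.21 in WTHK2 and 0.24 in LAC. Trmt10c, another subunit of it, rose by 0.16 in WTHK2 and 0.28 in LAC. Its call in WTHK2 was lost without EV replicate 1, EV replicate 2 or WTHK2 replicate 1, and without replicate 1 of both WTHK2 and LAC.

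Of 10 translation factors, 2 rose and 0 fell in WTHK2, a share risen near the 21% of all genes. In LAC 4 rose and 1 fell, where the number risen was 2 without EV replicate 2 and 2 without LAC replicate 1. In WTHK2 it was 1 without EV replicate 1 or WTHK2 replicate 3, or without the variance trend. At an adjusted p under 0.01 it was 0 in WTHK2 and 2 in LAC. Gfm2, a ribosome recycling factor, was the one that fell in LAC (-0.18), a call lost with libraries scaled to the same median (-0.14, adjusted p = 0.0934), by quantile normalization (-0.14, adjusted p = 0.0698), and without EV replicate 1, EV replicate 3, LAC replicate 1 or LAC replicate 3 (at most 0.112). Tufm, the mitochondrial elongation factor, rose by 0.12 in WTHK2 and 0.23 in LAC. Of 24 assembly factors, 4 rose and 2 fell in WTHK2, and 9 rose and 1 fell in LAC (2 fell without EV replicate 3). The share risen is below the 21% of all genes in WTHK2 and above the 22.4% of all genes in LAC. With libraries scaled to the same median 8 rose in WTHK2 and 13 in LAC, and at an adjusted p under 0.01 it was 3 in WTHK2 and 5 in LAC. Uqcc2, needed to make cytochrome b, rose by 0.35 in WTHK2 and 0.29 in LAC. Coa3, which stabilises newly made COX1, rose by 0.35 in WTHK2, and Cox15, which makes the haem of COX1, fell by 0.53 in WTHK2 and by 0.32 in LAC. Of 6 regulators of mitochondrial biogenesis, 0 rose and 2 fell in WTHK2 (1 without EV replicate 2, EV replicate 3 or WTHK2 replicate 3, and 1 with libraries scaled to the same median, by quantile normalization or at an adjusted p under 0.01). In LAC 0 rose and 1 fell, where Gabpa, an ETS-family activator of respiratory genes, fell by 0.26. The share of all genes that fell was 25.4% in WTHK2 and 27.1% in LAC.

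A list of 81 genes of very long proteins, written after their direction was known, moved the other way: 64 fell in WTHK2 and 71 in LAC. Of all genes, 25.4% fell in WTHK2 and 27.1% in LAC. Nbeal2 was called higher in each, which was lost in each without the variance trend, at an adjusted p under 0.01 and without any one EV library, in WTHK2 also without WTHK2 replicate 1 and by voom, and in LAC also without LAC replicate 1 or LAC replicate 3 and in the robust fit. Their median log2 fold changes were -0.28 and -0.28. By library the median was -0.18, -0.30 and -0.29 in replicates 1 to 3 of WTHK2 and -0.30, -0.23 and -0.32 in those of LAC. Transcript length or RNA quality as a source of the differences in the mitochondrial transcripts was not tested.

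The genes most like the 4 over the 9 libraries, by Pearson correlation of log2 values with the mean of the 4, were Tead3 (0.985), Fbxw9 (0.983), Ergic2 (0.976), Vps9d1 (0.976) and Sart1 (0.973). In all, 44 genes had a correlation over 0.95 and 117 one under -0.95, with only 3 groups behind the 9 points. Tead3 averaged 58.2 ± 4.69 CPM in WTHK2, 58.3 ± 2.99 CPM in LAC and 48.2 ± 0.605 CPM in EV (SD, n = 3 each). By deviations from the group means the most alike were Cpsf1 (0.974), Pwwp3a (0.973), Dzip1l (0.961), Cdan1 (0.961) and Rtkn (0.961), with 83 genes over 0.9 and 84 under -0.9.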

How the data were processed

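mRNA libraries of 9 samples of MI5-4 cells were compared (WTHK2, LAC and EV, 3 each). Per the submitters' processing notes, which give no order, the tools were STAR 2.7.0a, edgeR 3.8, featureCounts 2.0.1, FastQC 0.11.8 and cutadapt 1.18. Neither build nor annotation is given in the sources used here. Values as deposited are normalized CPM, scaled by the authors to an effective library size. The genes listed summed to 80.3% to 81.4% of the full CPM scale per library; genes below the table's floor were not analysed here. Within 0.01 of a read, each value was a whole number of steps, and the step gave reads and library sizes. Counting errors cover counting only.

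The test scale was log2(CPM + 1), which slightly understates the change of low genes, and the mean had to reach 1 CPM. All 9 libraries entered a single fit by group, using the trended variance of limma 3.58.1 (R 4.3.3). Tests were two-sided, with Benjamini-Hochberg adjustment over 6753 genes at 0.05. The fit was tested on simulated data. Tables and figures used Python 3.11.15, numpy 2.4.6, pandas 2.3.3 and matplotlib 3.10.9.

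The members and gene lists were chosen with earlier results of these data known. Lists cover mitochondrial transcription, DNA maintenance, RNA processing, translation, subunits and assembly of the respiratory complexes, biogenesis regulators, cell type markers, hexokinases and long proteins. Named genes are the 4 members, Hk1 and Hk2, up to 3 called genes with the smallest adjusted p per list, direction and comparison (up to 2 where none was called, as for Tfam in WTHK2 against LAC), and the 5 most alike genes by each measure; Polrmt was named after its values were seen. Alternatives were other pseudocounts, filters, scalings, fits, thresholds, a replicate block, each library left out, and, after the data were seen, voom and leaving out replicate 1 of WTHK2 and of LAC.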

Additional observations from a re-analysis of the deposited data

How the results depend on the processing

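The 4 mitochondrial transcripts kept their direction and their call against EV in every one of 23 alternatives, except that COX1 had a log2 fold change of 0 in both comparisons under quantile normalization, which sets the top gene of every library to one value and so left 3 of 4 called. Some alternatives could change little: the filters removed no gene. Leaving out a library outside a comparison changes its error estimate but not its fold change. With each library left out in turn, the fold changes against EV ranged from 0.37 (COX1) to 0.61 (CYTB) for WTHK2 and from 0.42 (COX1) to 0.77 (ND4) for LAC. Between WTHK2 and LAC the number of the 4 called ranged from 0 to 1 over these fits, and the fold changes ranged from -0.25 to -0.021 for ND4, from -0.16 to 0.052 for COX1, from -0.16 to 0.052 for COX3 (0.037 without WTHK2 replicate 3) and from -0.19 to 0.030 for CYTB. Of all genes, 1089 were called between WTHK2 and LAC, 541 at an adjusted p under 0.01, and 662 (without WTHK2 replicate 3) to 1279 with a library left out, 701 without LAC replicate 3; the cause was not tested.

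With the replicate number as a block, 4, 4 and 0 of the transcripts were called, and 3433, 3609 and 1414 of all genes against 3131, 3341 and 1089 without it, for WTHK2 against EV, LAC against EV and WTHK2 against LAC. Libraries with the same number correlated in their deviations at -0.0057 to 0.44, not above 0.1 in every pair, so the numbers were not taken to pair the samples. Between WTHK2 and LAC the values were 0.44, 0.25 and 0.073 for numbers 1 to 3, beside -0.33 to 0.19 for unlike numbers. Not every library correlated best with its own number. ND4 and COX3, with 452 to 896 reads a library, are limited most by depth.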
